A study of Homo sapiens with 4 samples.

Results

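Mitochondrial ribosomal proteins (MRPs) are encoded in the nucleus, translated in the cytosol and imported into mitochondria, where they build the ribosome (mitoribosome) that translates the few mRNAs of the mitochondrial genome. Their genes carry the prefix MRPL for proteins of the large subunit, which joins amino acids and holds the exit tunnel, and MRPS for proteins of the small subunit, which binds the mRNA and decodes it. The products of the mitochondrial mRNAs are core subunits of the respiratory chain and of ATP synthase, so the mitoribosome is needed for oxidative phosphorylation. The MRP genes were taken by name, as every gene name in the count tables made of MRPL or MRPS, a number and at most 1 letter from A to C. This gave 76 genes among 29655 distinct names, of which 47 were MRPL and 29 were MRPS genes, and each name stood in a single row of each table.

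RNA-seq libraries came from UMSCC74B, a long-established line derived from a squamous carcinoma of the head and neck. In all 4 libraries the cells had been given a short hairpin RNA (shRNA), by plasmid transfection according to the labels and by lentiviral transduction according to the methods of the study, and were collected after 72 h, with a control shRNA in 2 libraries and an shRNA against PRMT5 in the other 2. PRMT5 is an arginine methyltransferase. The labels name a single cell line and do not say whether replicates came from separate cultures, so the p-values below measure the spread between these libraries only, which may be technical.

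The PRMT5 transcript itself went against the labels. In control its level was 94.3 and 84.3 CPM (library-scaled counts), while the libraries labelled PRMT5 KD had 132 and 150 CPM, both higher than both controls. The log2 fold change was 0.66 (SE 0.12, n = 2 per group, FDR = 0.00546, edgeR quasi-likelihood test), and it was 0.58 and no longer called without control library 2. The groups are therefore written as the libraries labelled PRMT5 KD and the control libraries, and every direction below is that of the labels. The study reports that an immunoblot showed silencing by the PRMT5 shRNA, and its methods name qRT-PCR for mRNA levels after transduction. By qRT-PCR it reports mostly lower levels of selected FXR1 target mRNAs in PRMT5 KD cells. None of these measurements was analysed here. CPM values are estimated counts scaled to the total of the protein-coding genes tested in each library and by TMM factors (a scaling that evens out the bulk of genes), and FDR values are Benjamini-Hochberg adjusted over all 11896 protein-coding genes tested.

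Summed over all names, control libraries held 52185289 and 65964558 estimated counts, and those labelled PRMT5 KD held 64233361 and 55328869. At this depth the least abundant MRP gene, MRPS17, was at 3.61, 3.96, 5.38 and 5.17 CPM, controls first. Of 9 squamous epithelial markers, KRT5, KRT14, KRT6A and CDH1 were at or near 0 in all libraries. TP63 and DSG3 were lower and PKP1 was higher under the PRMT5 KD label. KRT17 was at 0.126 and 0.12 CPM in control against 1.11 and 1.49 CPM, and DSC3 at 1.77 and 1.96 CPM against 1.32 and 1.23 CPM. The summed level of the 9 was 59.0 and 53.8 CPM in control against 36.9 and 47.1 CPM. Markers of other cell types (10 genes, with CD3E and MLANA at 0) summed to 159 and 190 CPM in control and to 35.1 and 37.2 CPM under the label. All 4 of these that were tested (COL1A1, DCN, CD14 and PECAM1) were called lower, and their part in the MRP results was not tested. In control COL1A1 alone was at 81.5 and 95.4 CPM, above these 9 squamous markers summed, although the labels name a single squamous line. The reason was not tested. In bulk RNA, fewer cells of a type and less RNA per cell cannot be told apart.

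All 76 MRP genes passed the filter on low values. A gene was called where the FDR was under 0.05 and the absolute log2 fold change was at least 0.5, and 36 of the 76 (47.4%) were called higher in the libraries labelled PRMT5 KD, beside 21.2% of all genes tested. A single MRP gene, MRPS6, was called lower, beside 24.3% of all genes tested. The other 39 were not called. The number called higher was 23 without control library 1, beside 14.6% of all genes, and 15 without control library 2, beside 11.4%. Of the uncalled genes, 7 had an FDR under 0.05 with a smaller rise and 2, MRPL19 and MRPL41, with a smaller fall, beside 5.09% and 3.81% of all genes. With a log2 fold change of at least 1 as the limit, 3 MRP genes (MRPL27, MRPL54 and MRPS2) were called higher and MRPS6 lower, beside 8.67% and 12.9% of all genes.

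The median log2 fold change of the 76 genes was 0.47, with the middle 50% of genes between 0.22 and 0.71, and 64 of 76 were above 0. Over all genes tested the median was -0.01 and 5880 of 11896 were above 0. Both labelled libraries lay above, or both below, the 2 controls for 66 MRP genes, beside 80.5% of all genes tested, and the 10 genes whose groups overlapped were MRPL16, MRPL30, MRPL36, MRPL47, MRPL53, MRPS21, MRPS22, MRPS24, MRPS27 and MRPS34. Summed over the 76 genes, the level was 1813 and 1793 CPM in control and 2307 and 2282 CPM under the PRMT5 KD label. As a share of all protein-coding counts the MRP genes made up 0.171% and 0.167% in control and 0.239% and 0.248% in the labelled libraries. Scaling by total counts alone in place of TMM moved the median of all genes to 0.17 and that of the MRP genes to 0.65, and then 48 MRP genes were called higher and 1 lower, beside 3506 (29.5%) and 2199 (18.5%) of all genes.

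**Figure D1:**
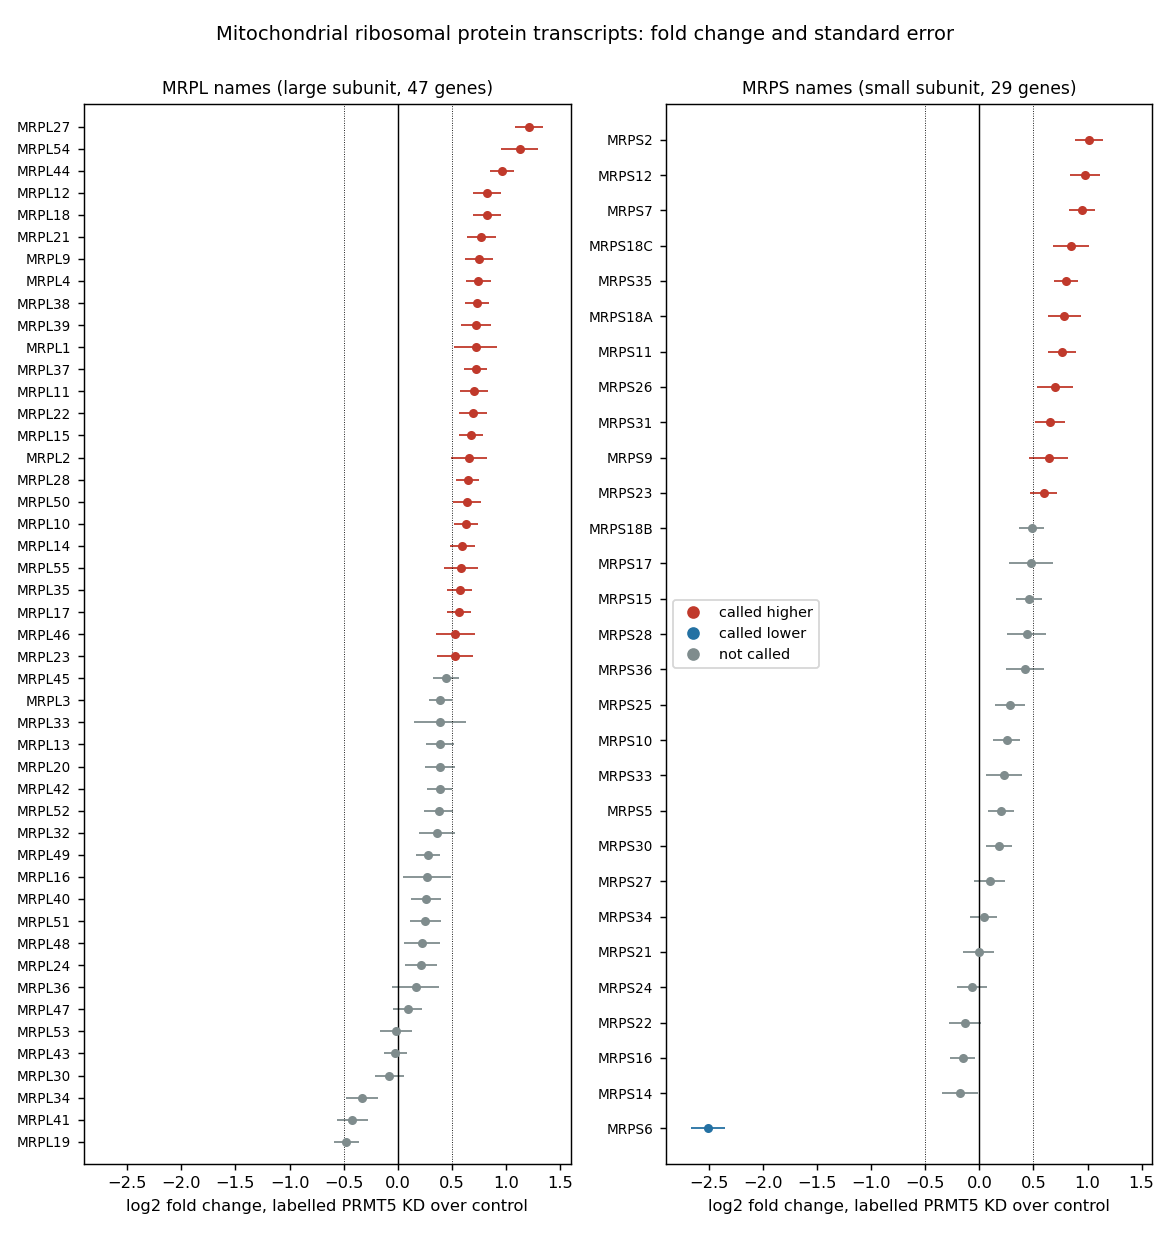
Log2 fold change (libraries labelled PRMT5 KD over control, n = 2 per group) of the 76 MRP genes, each point with its standard error, for MRPL names on the left and MRPS names on the right. Red points are called higher, blue lower and grey not called, and dotted lines stand at the call limit of 0.5. Most points lie right of 0, between MRPL27 at 1.21 and MRPL19 at -0.48, and MRPS6 stands apart at -2.50.

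The largest rise was that of MRPL27, the counterpart of bacterial L27, a protein beside the peptidyl transferase centre. Its level was 12.1 and 11.6 CPM in control and 28.0 and 26.9 CPM under the PRMT5 KD label, a log2 fold change of 1.21 (SE 0.13, FDR = 0.000756). MRPL54, a large subunit protein without a bacterial counterpart, was at 6.90 and 8.42 CPM against 17.9 and 15.6 CPM (1.13, SE 0.17, FDR = 0.00241). For both genes the lower labelled library was well above the higher control library, and groups did not overlap for 80.5% of all genes tested.

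Among genes of the small subunit the largest rises were those of MRPS2, MRPS12 and MRPS7, whose bacterial counterparts are S2, S12 and S7. MRPS2 was at 17.2 and 18.0 CPM in control and 33.4 and 37.6 CPM under the label, a log2 fold change of 1.01 (SE 0.13, FDR = 0.00134). MRPS12, whose counterpart lines the decoding centre, was at 17.0 and 16.4 CPM against 30.1 and 35.5 CPM (0.98, SE 0.14, FDR = 0.00194). MRPS7, a protein of the head of the subunit, was at 17.3 and 16.8 CPM against 32.7 and 32.8 CPM (0.95, SE 0.12, FDR = 0.00133). The groups of all 3 genes were apart by far more than the replicates of either group. Groups did not overlap, in either direction, for 80.5% of all genes tested. MRPS11, which in bacteria (as S11) lies along the path of the mRNA, was at 18.0 and 16.2 CPM against 29.5 and 28.6 CPM (0.76, SE 0.13, FDR = 0.00367). MRPS5, the counterpart of a protein near the mRNA entry, was at 22.5 and 23.2 CPM against 26.4 and 26.3 CPM and was not called (0.20, SE 0.12, FDR = 0.193). MRPS35, which has no bacterial counterpart, was at 29.1 and 28.5 CPM against 48.4 and 51.8 CPM (0.80, SE 0.11, FDR = 0.00185). Without control library 2, MRPS11 was at 0.69 and no longer called.

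The 3 genes of the stalk of the large subunit, where translation factors bind, were all called higher, beside 21.2% of all genes tested. MRPL12, the mobile stalk protein, was at 21.6 and 19.8 CPM in control and 34.8 and 38.6 CPM under the PRMT5 KD label (log2 fold change 0.83, SE 0.13, FDR = 0.00264). MRPL11, at the stalk base, was at 13.1 and 12.7 CPM against 21.5 and 20.5 CPM (0.70, SE 0.13, FDR = 0.0052). MRPL10, which anchors MRPL12, was at 30.1 and 28.0 CPM against 44.2 and 45.9 CPM (0.63, SE 0.11, FDR = 0.00475). No control library reached the level of a labelled library for any of the 3, and groups did not overlap, in either direction, for 80.5% of all genes tested. Without control library 2, MRPL10 (0.58) and MRPL11 (0.68) were not called. MRPL18, the counterpart of the 5S rRNA-binding protein L18 of bacteria, was at 17.2 and 18.8 CPM against 33.1 and 30.8 CPM (0.83, SE 0.13, FDR = 0.0026), and at 0.44 and not called after adjustment for exon length and GC content.

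Of 6 proteins at the side of the large subunit where the nascent chain leaves, 4 were called higher, beside 21.2% of all genes tested. MRPL44, which has a ribonuclease III fold, was at 22.9 and 22.2 CPM in control and 44.1 and 43.8 CPM under the label (0.96, SE 0.11, FDR = 0.00103). MRPL39 was at 15.3 and 14.1 CPM against 22.7 and 25.6 CPM (0.72, SE 0.14, FDR = 0.00589), and MRPL22, which lines the tunnel, at 13.4 and 13.7 CPM against 22.4 and 21.5 CPM (0.70, SE 0.13, FDR = 0.00508). MRPL23, at the tunnel exit, was close to the limit of the call. It was at 7.25 and 8.50 CPM against 11.8 and 10.9 CPM (0.53, SE 0.16, FDR = 0.0336). MRPL45, which ties the mitoribosome to the inner membrane, was at 32.3 and 34.3 CPM against 42.8 and 48.1 CPM and passed the FDR limit without reaching the fold limit (0.45, SE 0.12, FDR = 0.0205). MRPL24 was at 9.53 and 10.3 CPM against 11.0 and 11.9 CPM (0.21, SE 0.15, FDR = 0.265). MRPL22 and MRPL23 were called in neither fit that left out a control library (0.68 and 0.42 without control 1, 0.72 and 0.65 without control 2), and MRPL39 was not called without control 2 (0.66). After adjustment for exon length and GC content MRPL39 was at 0.22 (FDR = 0.241), and with canonical length in its place MRPL39 was at 0.42 and MRPL23 at 0.19 (FDR = 0.301), none of them called. The 6 were picked by role, and 2 other proteins near the exit were MRPL17, which was called higher (0.57), and MRPL47, which was not (0.09, SE 0.13, FDR = 0.592).

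The MRPS18 paralogues all descend from bacterial S18, and their products occupy different places in the mitoribosome. MRPS18C, which takes the place of S18 itself, was at 6.92 and 5.92 CPM in control and 11.9 and 11.2 CPM under the PRMT5 KD label (0.85, SE 0.17, FDR = 0.00643). MRPS18A, whose protein is found in the large subunit in spite of its name, was at 17.6 and 15.0 CPM against 30.5 and 25.7 CPM (0.78, SE 0.15, FDR = 0.00647). MRPS18B was at 44.5 and 46.6 CPM against 67.0 and 60.5 CPM and fell just short of the fold limit (0.48, SE 0.11, FDR = 0.0127). The groups of all 3 paralogues did not overlap, which held for 80.5% of all genes tested, and their differences from each other were not tested. MRPS18C (0.74) and MRPS18A (0.67) were not called without control library 2. MRPS30, the other large subunit protein with an S name, was at 26.8 and 24.9 CPM against 29.2 and 29.4 CPM (0.18, SE 0.12, FDR = 0.241). MRPS36, now known as KGD4, a part of the oxoglutarate dehydrogenase complex and not of the ribosome, was at 6.44 and 6.46 CPM against 9.29 and 8.01 CPM (0.42, SE 0.17, FDR = 0.0785). MRPS28, the counterpart of part of bacterial S1, was at 5.26 and 6.10 CPM against 7.97 and 7.45 CPM (0.44, SE 0.18, FDR = 0.0816).

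The remaining called genes had log2 fold changes from 0.53 for MRPL46 to 0.77 for MRPL21. After adjustment for canonical length and GC content MRPL46 was at 0.18 (FDR = 0.411) and MRPL21 at 0.44, and neither was called. They included MRPL37, at 52.9 and 52.2 CPM in control against 86.3 and 86.7 CPM, and MRPL1, whose labelled libraries were far apart at 11.9 and 16.9 CPM against 8.64 and 8.80 CPM in control (0.72, SE 0.20, FDR = 0.023). The smallest differences were those of MRPS21, MRPL53 and MRPL43. MRPL43 was at 45.1 and 45.6 CPM in control and 44.7 CPM in both labelled libraries, so that the difference of -0.02 (SE 0.11) was within its error. MRPS21 (-0.01, SE 0.14) and MRPL53 (-0.01, SE 0.15) had overlapping groups, and the sign of all 3 changed under some other scalings and filters, so that no direction is given for them.

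Apart from MRPS6, the MRP genes furthest below 0 were MRPL19 and MRPL41, both of the large subunit. MRPL19 was at 60.1 and 64.0 CPM in control and 42.1 and 47.1 CPM under the PRMT5 KD label (-0.48, SE 0.12, FDR = 0.0147). MRPL41 was at 19.4 and 21.5 CPM against 16.2 and 14.3 CPM (-0.42, SE 0.14, FDR = 0.0454). For both genes the labelled libraries were below both controls, by less than the fold limit. Groups did not overlap, in either direction, for 80.5% of all genes tested.

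**Figure D2:**
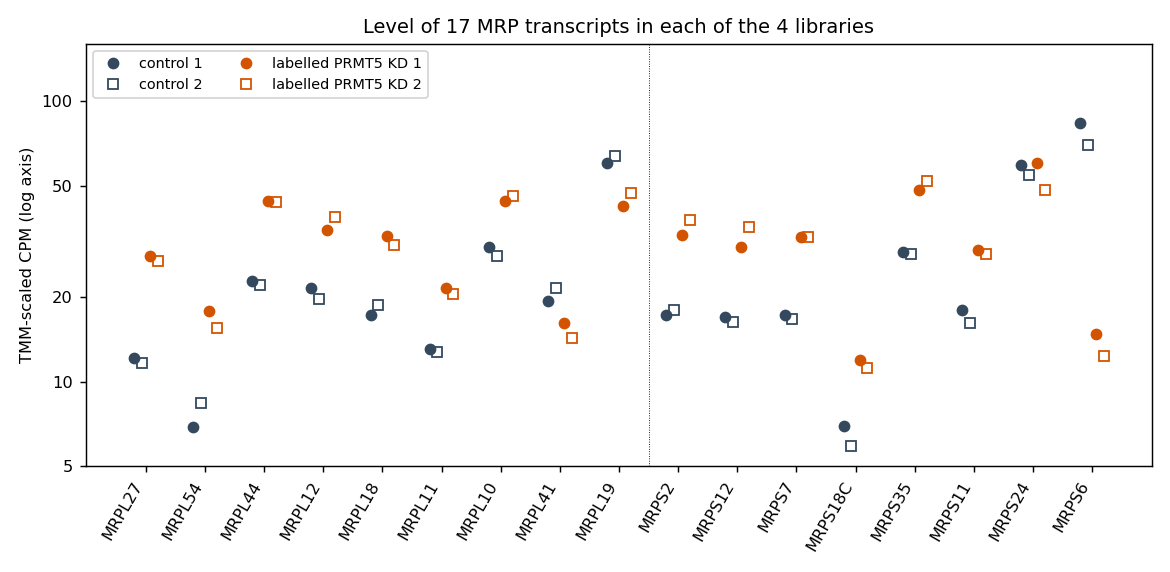
TMM-scaled CPM (log axis) of 17 MRP genes in each of the 4 libraries, with MRPL genes left and MRPS genes right of the dotted line. Dark symbols are control and orange symbols the libraries labelled PRMT5 KD, with circles for replicate 1 and open squares for replicate 2. The orange symbols lie above the dark ones for most genes, below them for MRPL41 and MRPL19, mixed with them for MRPS24, and at 14.8 and 12.3 CPM against 84.0 and 70.1 CPM for MRPS6.

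MRPS6, the counterpart of bacterial S6, was the single MRP gene called lower. Its level was 84.0 and 70.1 CPM in control and 14.8 and 12.3 CPM under the PRMT5 KD label, a log2 fold change of -2.50 (SE 0.16, FDR = 0.000245). Its gene spans chromosome 21 from 34073224 to 34143034 in GENCODE 44 (plus strand, GRCh38), a span that begins with the outermost of several transcripts. RefSeq starts it at 34073578, the same base as SLC5A3, a myo-inositol transporter gene on the same strand (34073578-34106260). SLC5A3 fell from 881 and 769 CPM to 61.4 and 56.3 CPM, a log2 fold change of -3.81 (SE 0.15, FDR = 0.00015).

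The estimated counts show that reads had been divided between the 2 genes. Neither gene had whole numbers in any library, yet their sum was a whole number in all 4, at 38178 and 41971 reads in control and 3626 and 3279 in the libraries labelled PRMT5 KD. MRPS6 was given 8.71% and 8.35% of these reads in control and 19.5% and 17.9% under the label. How many of its reads belong to the transporter transcript and how many to MRPS6 cannot be told apart in these tables, and the MRPS6 level is the part assigned to it of a common pool of reads. MRPL45 and MRPS16 also carried decimals in all 4 libraries and MRPS24 in 1 of them, and the other MRP genes had whole numbers throughout, with values within 0.01 of a whole number taken as whole.

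The stretch before the RefSeq start of MRPS6 and SLC5A3 is shown because both genes share it, and 6 others because they belong to called genes and hold a motif. Each is 100 bases of the plus or minus strand as the gene is read, outside the exons of GENCODE 44, with sequences from RefSeq on GRCh38.p14. Capitals mark matches on either strand to CCGGAAG, a core bound by ETS factors such as GABPA, or to GCGCATGCG, bound by NRF1. Both factors are known for their part in the expression of nuclear genes for mitochondrial proteins.
MRPS6: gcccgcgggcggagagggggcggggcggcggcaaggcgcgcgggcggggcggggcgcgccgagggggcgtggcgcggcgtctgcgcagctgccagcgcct
MRPL54: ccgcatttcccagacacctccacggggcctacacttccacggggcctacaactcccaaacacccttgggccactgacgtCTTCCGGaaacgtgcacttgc
MRPS18A: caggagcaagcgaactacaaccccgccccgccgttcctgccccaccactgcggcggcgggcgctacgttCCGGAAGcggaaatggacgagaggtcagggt
MRPS26: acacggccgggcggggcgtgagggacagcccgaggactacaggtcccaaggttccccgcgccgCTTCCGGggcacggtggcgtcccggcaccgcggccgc
MRPS31: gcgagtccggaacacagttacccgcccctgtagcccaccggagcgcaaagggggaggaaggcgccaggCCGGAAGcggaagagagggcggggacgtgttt
MRPL17: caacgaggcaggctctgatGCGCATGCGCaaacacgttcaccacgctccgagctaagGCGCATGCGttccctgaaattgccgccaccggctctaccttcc
MRPL22: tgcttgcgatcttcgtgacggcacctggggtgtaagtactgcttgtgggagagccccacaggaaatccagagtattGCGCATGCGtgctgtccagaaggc
The MRPS6 stretch (chr21:34073449-34073548, plus strand) ends 29 bases before the common RefSeq start, lies inside the longer GENCODE span of MRPS6 and holds neither motif. The others end at the base before the RefSeq start, at chr19:3762582-3762681 (plus strand, MRPL54), chr6:43687792-43687891 (minus, MRPS18A), chr20:3045952-3046051 (plus, MRPS26), chr13:40771191-40771290 (minus, MRPS31), chr11:6683341-6683440 (minus, MRPL17) and chr5:154940973-154941072 (plus, MRPL22). MRPL54, MRPS18A, MRPS26 and MRPS31 hold the ETS letters. MRPL22 holds the NRF1 letters and MRPL17 holds 3 matches to them, of which a pair overlaps on opposite strands.

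Promoters of 250 bases before and 50 bases after the start were found for 67 of the 76 MRP genes. CCGGAAG on either strand was in 28 of the 67 (41.8%), beside 19.8% of 9770 promoters of genes tested and 10.7% of all 27305 promoters. AAGATGGCG, bound by YY1, was in 13 of the 67 (19.4%), beside 4.16% and 1.85%. GCGCATGCG was in 3 MRP promoters (4.48%), beside 3.74% and 2.10%. These were 3 of 30 promoters of MRP genes called higher and 0 of the 37 others, too few to compare. The ETS letters were in 10 of 30 promoters of MRP genes called higher (33.3%) and in 18 of the 37 others (48.6%), and the YY1 letters in 5 of 30 and 8 of 37. The ETS letters were in 16 of 40 MRPL and 12 of 27 MRPS promoters. These are matches of letters and were not tested, and they say nothing of binding.

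The subunits were then compared. Of the 47 MRPL genes, 25 (53.2%) were called higher and none lower. Their median log2 fold change was 0.53, and 41 were above 0. Of the 29 MRPS genes, 11 (37.9%) were called higher and MRPS6 lower, with a median of 0.44 (0.45 without MRPS6), and 23 were above 0. The percentages of all genes tested were those given above, 21.2% higher and 24.3% lower. After adjustment for exon length and GC content, 17 of the 47 MRPL and 11 of the 29 MRPS genes were called higher. With canonical length in its place, 18 MRPL and 9 MRPS genes were called higher. In both adjusted fits 24.00% of all genes were called higher. Within the large subunit, 18 of the 30 proteins with a bacterial counterpart were called higher (median 0.58) against 7 of the 17 proteins found only in mitochondria (median 0.39). Within the small subunit these were 6 of 16 (median 0.45) and 4 of 10 (median 0.39). MRPS18B was counted among the 10 although it descends from S18, and MRPS18A, MRPS30 and MRPS36 were in neither class. Adjusted for exon length and GC content, the large subunit classes had 11 of 30 and 6 of 17 called higher, and the small subunit classes 6 of 16 and 4 of 10. With canonical length these numbers were 12, 6, 5 and 3. The spread within each class was wide, from -0.48 to 1.21 among large subunit proteins with a bacterial counterpart, and the differences between classes were not tested.

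The summed level of the MRPL genes was 1054 and 1058 CPM in control and 1449 and 1434 CPM under the PRMT5 KD label, and that of the MRPS genes was 759 and 735 CPM against 858 and 847 CPM. The ratio of the summed MRPL to the summed MRPS level was 1.39 and 1.44 in control and 1.69 in both labelled libraries, 1.20 times higher on average. The shift was smaller once a single gene was left out. Without MRPS6 the ratio was 1.56 and 1.59 in control and 1.72 in both labelled libraries, 1.09 times higher, and still did not overlap between groups. Per kilobase of canonical transcript, with MRPS6 included, the ratio was 1.47 and 1.55 against 1.92 and 1.93. With MRPS18A and MRPS30 counted as large subunit genes and MRPS36 left out it was 1.55 and 1.59 against 1.91 and 1.90. With 2 libraries in each group a two-sided exact permutation test cannot go below p = 0.333, so none was made.

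**Figure D3:**
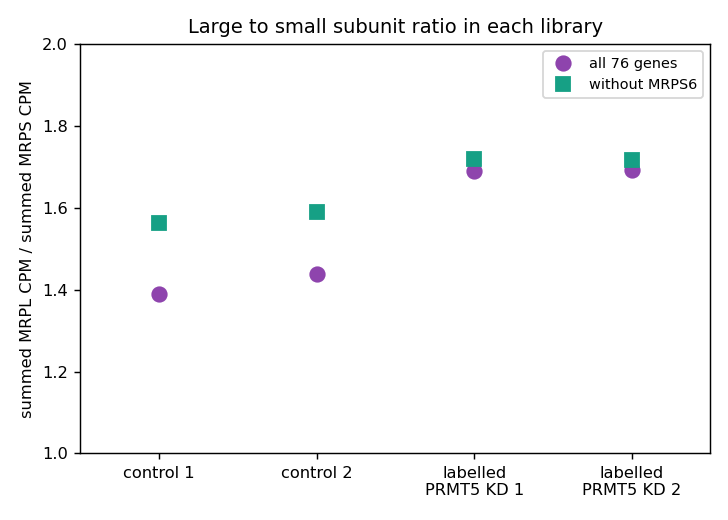
Ratio of the summed MRPL level to the summed MRPS level (both in CPM) in each of the 4 libraries, for all 76 genes (circles) and without MRPS6 (squares); the axis starts at 1. The labelled libraries lie above the controls in both cases, at 1.69 against 1.39 and 1.44 with MRPS6 and at 1.72 against 1.56 and 1.59 without it.

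Per kilobase of canonical transcript, the level of MRP genes ranged widely. In control the highest RPKM values (reads per kilobase, scaled to library size) were those of MRPS24 (85.3), MRPS6 (82.7), MRPL3 (46.4) and MRPL43 (45.4), and the lowest those of MRPL42 (1.98), whose canonical transcript is 15557 bases long, and MRPS17 (2.12). Under the PRMT5 KD label MRPS24 was at 81.4, MRPL3 at 60.9, MRPL43 at 44.7 and MRPS6 at 14.6 RPKM. Both MRPS6 values rest on the part assigned to it of the reads pooled with SLC5A3. MRPS24 shares exons with a read-through transcript, and several other MRP genes overlap annotated genes on either strand, 21 pairs on the same strand and 39 on opposite strands. The kit keeps strand, the setting used in counting is not given in the sources used here, and how reads of such overlaps were assigned was not tested.

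MRP transcripts are short, and fold changes moved with length over all genes. The median canonical transcript was 1242 bases for the MRP genes and 3348 bases for all genes tested. Among all genes, the median log2 fold change was 0.26 among the 1190 shortest (295 to 1282 bases) and -0.38 among the 1190 longest (7653 bases and above). The 1190 shortest held 39 MRP genes with a median of 0.44, of which 18 were called higher, beside 30.8% of all genes in that group. The next 1190 (1282 to 1813 bases) held 19 MRP genes with a median of 0.64, beside 0.13 for all genes there, and 11 were called higher, beside 28.8%. After adjusting the fit for exon length and GC content, 28 MRP genes were called higher and 3 lower, beside 24.00% and 21.00% of all genes. Their median was then 0.34, beside 0.06 for all genes tested. With canonical transcript length in that adjustment, an alternative chosen after seeing the data, the numbers were 27 and 5, beside 24.00% and 21.2% of all genes. The MRP median was then 0.30, beside 0.06 for all genes tested. MRPL53 and MRPL41 were called lower with MRPS6 under both corrections, at -0.69 and -1.04 with exon length. With canonical length MRPL27 was at 0.68 in place of 1.21, MRPL54 at 0.72 in place of 1.13, while MRPS2 was at 1.05. Of the 36 called genes, 12 lost their call with exon length, from 0.08 for MRPL14 to 0.49 for MRPL50 and MRPL55, and 10 with canonical length, from 0.18 for MRPL46 to 0.49 for MRPL17. MRPL1, MRPL14, MRPL17, MRPL39, MRPL55, MRPS9 and MRPS31 lost it under both.

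**Figure D4:**
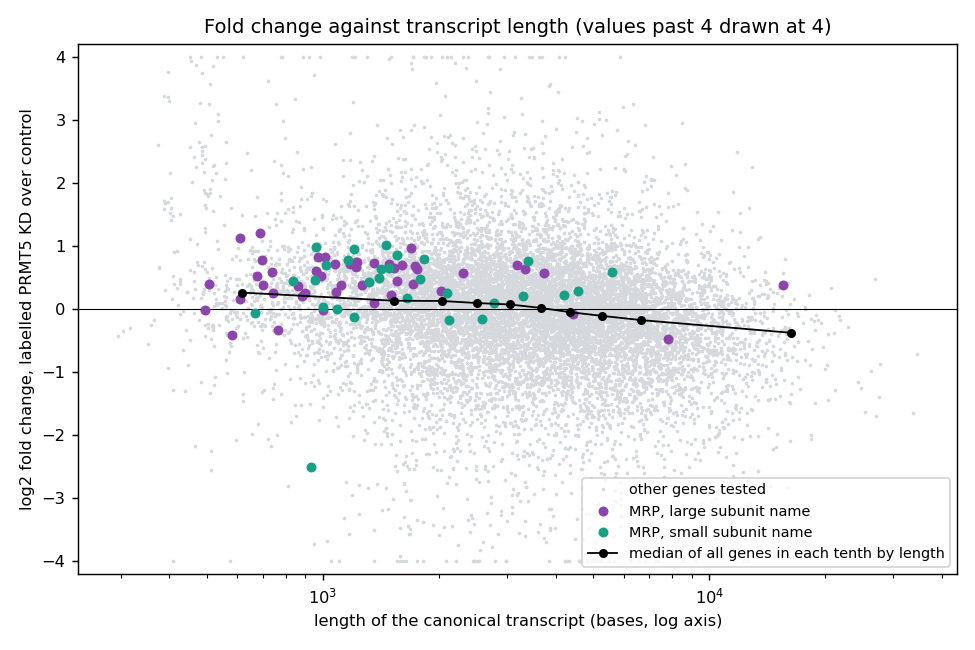
Log2 fold change (libraries labelled PRMT5 KD over control) against the length of the canonical transcript (bases, log axis) for all genes tested (light grey), MRPL genes (purple) and MRPS genes (green); black points join the medians of 10 equal groups of all genes by length, each drawn at the geometric mean of its bounds. The black line falls from 0.26 to -0.38, and most MRP genes lie at the short end and above it.

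The mitoribosome holds proteins whose names lack the MRPL or MRPS form, and of 7 such genes 3 were called higher and none lower (median 0.49), beside 21.2% higher and 24.3% lower over all genes tested, which is also the background of the lists that follow. GADD45GIP1 was at 9.60 and 9.84 CPM in control against 17.0 and 14.8 CPM under the PRMT5 KD label (0.71, SE 0.15, FDR = 0.00798), and ICT1, a peptidyl-tRNA hydrolase built into the large subunit, at 9.58 and 9.44 CPM against 15.4 and 15.6 CPM (0.71, SE 0.14, FDR = 0.0062). AURKAIP1 was called higher as well (0.69), and DAP3, PTCD3, CHCHD1 and MRP63 were not called (0.49, 0.10, 0.13 and 0.01). Of 25 genes for mitoribosome assembly and rRNA modification, 9 (36.00%) were called higher and 1 lower (median 0.33). MRM1, an rRNA methyltransferase, was at 5.21 and 4.48 CPM against 9.14 and 11.9 CPM (1.12, SE 0.20, FDR = 0.00495) and MTERFD1 (MTERF3) at 10.7 and 11.6 CPM against 20.4 and 24.9 CPM (1.03, SE 0.16, FDR = 0.00244). TFB1M, which dimethylates the small subunit rRNA, was the gene called lower, at 15.6 and 18.7 CPM against 8.95 and 11.7 CPM (-0.73, SE 0.19, FDR = 0.0174).

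Other steps of mitochondrial gene expression were covered by 3 lists. Of 18 tested genes for mitochondrial DNA transcription and RNA binding, 6 (33.3%) were called higher and none lower (median 0.38), led by FASTKD5 (0.69, SE 0.15, FDR = 0.00975) and HSD17B10, a subunit of mitochondrial RNase P (0.67, SE 0.11, FDR = 0.00387). Of 14 translation factors 2 (14.3%) were called higher and none lower (median 0.13), TSFM, the exchange factor of mitochondrial EF-Tu, at 0.81 (SE 0.13, FDR = 0.00338) and TACO1 at 0.68 (SE 0.13, FDR = 0.00541). TUFM, which is mitochondrial EF-Tu, was at 130 and 131 CPM against 119 and 127 CPM (-0.09, SE 0.11, FDR = 0.502). Of 20 genes for mitochondrial aminoacyl-tRNA synthesis, AARS2 was called higher (0.51, SE 0.15, FDR = 0.0304) and none lower (median 0.14). Messenger RNAs of the mitochondrial genome were not analysed here, because none of the 13 was found under the names searched. Among 84 tested genes for cytosolic ribosomal proteins, which do the same work outside mitochondria, 6 (7.14%) were called higher and none lower (median 0.11). Among 80 tested nuclear genes for oxidative phosphorylation subunits, 6 were called higher and 2 lower (median 0.10). Set against 21.2% of all genes called higher, the share was larger in the first 3 of these 7 lists and smaller in the last 4. The differences between these lists and the MRP genes were not tested, and the cytosolic ribosomal and oxidative phosphorylation transcripts were shorter, with a median canonical length of 827 and 831 bases. Adjusted for canonical length and GC content, their medians were -0.22 and -0.23, beside 0.30 for the MRP genes and 0.06 for all genes tested.

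**Figure D5:**
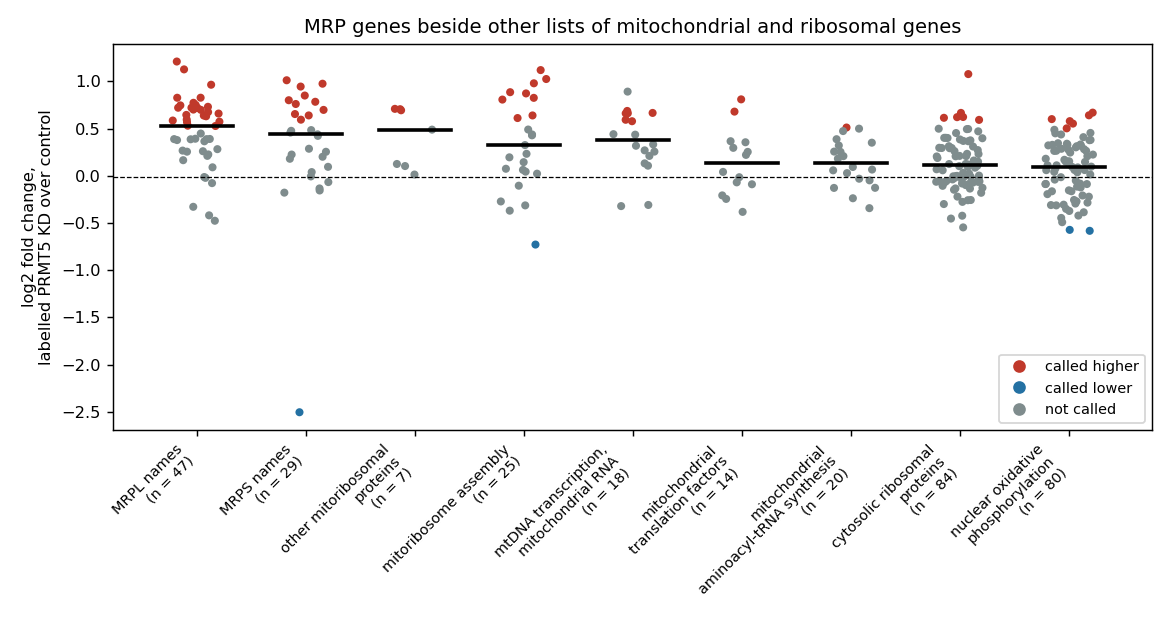
Log2 fold change (libraries labelled PRMT5 KD over control) of single genes in 9 lists, with a black bar at each median, the dashed line at the median of all genes tested and points spread sideways only for display. Red points are called higher, blue lower and grey not called. The medians are 0.53 and 0.44 for MRPL and MRPS names, 0.33 to 0.49 for other mitoribosomal proteins, mitoribosome assembly and mitochondrial DNA transcription, and 0.10 to 0.14 for the other 4 lists.

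Several MRP genes stand head to head with another gene, and these neighbours were examined after the MRP values had been seen. A start on the opposite strand within 1000 bases was found for 16 MRP genes, and 15 of the pairs were tested in both genes, with MRPL46 and MRPS11 counted once from each side. EME1, a nuclease subunit 13 bases from MRPL27, was at 3.66 and 4.22 CPM in control against 12.2 and 16.9 CPM under the PRMT5 KD label (1.88, SE 0.22, FDR = 0.001). IGHMBP2, a helicase 28 bases from MRPL21, was at 21.9 and 19.9 CPM against 40.6 and 40.0 CPM (0.95, SE 0.12, FDR = 0.00134). MRPL46 and MRPS11, from different subunits, face each other 63 bases apart on chromosome 15 and were both called higher, at 0.53 and 0.76. In all, 6 of the 15 neighbours were called higher and 1 lower, with a median of 0.50, beside 21.2% and 24.3% of all genes. The 6 include MRPL46 and MRPS11, which are MRP genes themselves. In 9 pairs the first gene was an MRP gene called higher, and 5 of these neighbours were called higher and none lower, again with MRPL46 and MRPS11 among the 5. The neighbour called lower was SLC7A7, an amino acid transporter 59 bases from MRPL52 (-1.78, SE 0.40, FDR = 0.0171), while MRPL52 was at 0.38 (SE 0.14, FDR = 0.0539).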

How the data were processed

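RNA was sequenced from UMSCC74B cells with a directional kit, 2 libraries per group. The authors deposited estimated counts per gene, not normalized, as 1 table per library with 29744 entries. The submitters' processing notes name FastQC, Trim Galore, STAR, Salmon, DESeq2 and GRCh38; the paper's methods name FeatureCounts, and which program wrote the tables is not given in the sources used here. Of the entries, 28 had names turned into dates and were left out (0.150% to 0.161% of counts). Counts were rounded, and protein-coding genes (GENCODE 44) that reached 0.5 RPKM in both libraries of a group were tested with the edgeR 4.0.16 quasi-likelihood test (TMM factors, robust dispersion, no replicate term) in R 4.3.3. The filter threshold and the fold limit of 0.5 follow the methods. The results section of the study names an absolute log-fold change of at least 1 instead, and MRP calls at a limit of 1 are given above. Each SE is the fold change divided by the root of F. Scripts were tested on simulated data.

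The MRP genes and all gene lists were chosen with earlier results of these data known. A further gene of the squamous marker list is not reported here, and the summed marker level leaves it out. MRP genes named are the 10 called with the largest change in each direction (average log2 CPM of at least 3), members with set roles and the 3 smallest changes; in each related list, the 2 with the largest called change each way. MRPL1, MRPL3, MRPL17, MRPL19, MRPL21, MRPL37, MRPL41, MRPL42, MRPL46, MRPL47, MRPL52, MRPS16, MRPS17, MRPS24, TUFM, the uncalled mitoribosomal proteins, AURKAIP1, SLC5A3, the genes facing MRP genes and the promoters shown were picked after their values were seen. Alternatives were DESeq2 1.42.0, other scalings and filters, a replicate block, length and GC correction by splines (4 degrees of freedom each), and leaving out each library.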

Additional observations from a re-analysis of the deposited data

How the results depend on the processing

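MRPS6 was called lower in all fits (log2 fold change -2.89 to -2.33), and the median of the MRP genes was above 0 in all. With 1 library left out (a lone library is assumed to vary like the others), 15 to 38 MRP genes were called higher, 11 to 26 of them MRPL and 4 to 12 MRPS genes, and 1 to 2 were called lower (0 to 1 MRPL gene). The median was then 0.44 to 0.53 for all, 0.52 to 0.58 for MRPL and 0.40 to 0.52 for MRPS genes. PRMT5 was at 0.57 to 0.78, and it was not called without control 2 (0.58) or at a fold limit of 1 (0.66). Among the genes named by rule, MRPS18C, MRPS18A, MRPS11, MRPL10, MRPL11, MRPL22, MRPL23 and MRPL39 lost their call without control 2. MRPL22 and MRPL23 lost it without control 1. Further MRP genes not named by rule lost their call in each of these fits. Errors were wide for low genes such as MRPL33 (SE 0.24).

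With the length and GC correction, 3 MRP and 2 MRPL genes were called lower and the medians were 0.34 (all), 0.35 (MRPL) and 0.33 (MRPS). Among the genes named by rule, MRPL18 and MRPL39 lost their call, MRPS5 was called higher and MRPL53 lower. Of the other MRP genes, MRPL42 (0.75), MRPS25 (0.70) and MRPS27 (0.54) were newly called higher and MRPL41 (-1.04) lower. With canonical length 5 MRP, 3 MRPL and 2 MRPS genes were called lower, and the medians were 0.30, 0.31 and 0.24. MRPL21 (0.44), MRPL23 (0.19), MRPL39 (0.42) and MRPL46 (0.18) were among 10 genes that lost their call. The medians were 0.65, 0.71 and 0.62 with total counts alone and 0.54, 0.60 and 0.51 with all gene names. They were 0.52 (all) and 0.49 (MRPS) with no filter, and 0.51 (all) with edgeR's own filter. A fold limit of 1 left 3 genes called higher, 2 MRPL and 1 MRPS gene. The ratio of MRPL to MRPS under the PRMT5 KD label was 1.93 per kilobase, 1.91 with MRPS18A and MRPS30 counted as large, and 1.72 without MRPS6, chosen after seeing the data. In each case the cause was not tested. DESeq2 called 36 higher and 1 lower.

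Among the genes named by rule, signs changed for 4 close to 0, MRPL24, MRPL43, MRPS21 and MRPL53. Other MRP genes changed sign too. With the length and GC correction MRPL40 went from 0.26 to -0.12, MRPL51 from 0.26 to -0.15 and MRPS22 from -0.13 to 0.23. With canonical length MRPL33 went from 0.39 to -0.35. Of the 76 MRP genes, 64 were above 0 uncorrected, 61 with the correction and 55 with canonical length. MRPL24 was at -0.0047 with the length and GC correction, -0.048 with canonical length and -0.0053 with the block added. MRPL43 was at 0.020 with the correction, with or without the block, 0.16 with total counts, 0.032 without a filter, 0.022 with edgeR's filter, 0.049 with all names and -0.029 to 0.016 with 1 library left out. MRPS21 was at 0.0021 with DESeq2, 0.0023 with its size factors, 0.17 with total counts, 0.047 without a filter, 0.038 with edgeR's filter, 0.065 with all names and -0.13 to 0.13 with 1 library left out. MRPL53 was at 0.16 with total counts, 0.040 without a filter, 0.031 with edgeR's filter, 0.057 with all names and -0.085 to 0.096 with 1 library left out.

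Replicate numbers did not count as pairs, because no label ties a number to a shared culture or day, and replicate deviations of the groups correlated at -0.10 over all genes and 0.15 over the MRP genes. With a replicate block, 34 MRP genes were called higher and 1 lower, and MRPL23 was the gene among those named by rule that lost its call. With the block and the length and GC correction, 26 were called higher, 15 of them MRPL genes, and 3 lower, 2 of them MRPL genes, with medians of 0.34, 0.34 (MRPL) and 0.33 (MRPS). With the pairing crossed, chosen after seeing the data, 35 were called higher and 1 lower.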
